A study of Mus musculus with 12 samples.

Results

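The genes described here are 10 regulators of entry into the cell cycle: the D-type cyclins Ccnd2 and Ccnd3, the E-type cyclins Ccne1 and Ccne2, the cyclin D-dependent kinases Cdk4 and Cdk6, and the cyclin-dependent kinase inhibitors Cdkn1a, Cdkn1b, Cdkn2c and Cdkn2d. They were taken by symbol from the 54532 genes listed for each library, each symbol matched 1 row, and all 10 passed the expression filter that left 11550 genes for testing. Expression was measured by RNA-seq in primary CD8+ T cells of C57BL/6 mice, isolated from spleen and lymph nodes and activated with antibodies to CD3 and CD28. A control siRNA that targets no gene (siNTC, labelled WT) or an siRNA against Creb1 (siCreb1, labelled Creb1 KD) was introduced by transient transfection, and the cells were then cultured for 24 h with trans-vaccenic acid (TVA), a fatty acid of ruminant milk and meat, or with its vehicle DMSO. There were 3 libraries in each of the 4 groups, called siNTC, siNTC plus TVA, siCreb1 and siCreb1 plus TVA. The comparison asks how TVA acts on these genes and whether its effect differs when CREB, the transcription factor that Creb1 encodes, is depleted. No source states that the 3 libraries of a group came from separate mice, so p-values here measure the spread between libraries, which may be technical. The labels number the libraries 1 to 3 in each group, and libraries are named by those numbers below.

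D-type cyclins are made when a T cell receives antigen and growth factor signals, and they activate Cdk4 and Cdk6, which begin to phosphorylate the retinoblastoma protein and so release E2F transcription factors. E2F then drives the genes of the E-type cyclins, whose kinase Cdk2 completes that step and starts DNA replication. The Ink4 inhibitors (p18, encoded by Cdkn2c, and p19, encoded by Cdkn2d) bind Cdk4 and Cdk6, whereas the Cip/Kip inhibitors (p21, encoded by Cdkn1a, and p27, encoded by Cdkn1b) bind complexes of a cyclin and a kinase, and p27 holds resting T cells out of the cycle.

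CREB binds the cyclic AMP response element (CRE), TGACGTCA, and can bind its half-site, TGACG. Promoter windows of 300 bases, from 250 bases before a start site to 50 past it, were given by RefSeq for GRCm38.p6 and matched 8 of the 10 genes by symbol with 11 windows; Ccnd2 and Ccne2 had no entry. None of the 11 windows held the full CRE on either strand, which 1.79% of all 32851 windows hold, nor the E2F letters TTTCCCGC or TTTGGCGC, which 1.07% and 0.514% of all windows hold. The half-site, which every full CRE contains, was present in 5 of the 11 windows, of 4 genes, against 20.8% of all windows. The 250 bases before the start were 59.6% to 66.0% G or C in those 5 windows and 42.8% to 77.2% in all 11. The median over all windows was 52.4%. The part of base composition in the count was not tested. The 5 matches are shown with 10 bases on each side because they are where the letters CREB can bind occur near these genes; capitals mark the half-site, which reads CGTCA where it lies on the other strand, and each line gives its first and last base on the strand named.
Ccnd3, chr17:47504876-47504900, plus strand: cccctaagccTGACGgagcaacccc
Ccnd3, chr17:47593429-47593453, plus strand: tagaacgttgTGACGtaggagcatt
Cdk4, chr10:127063435-127063459, plus strand: gtcacgtggcCGTCAgggccccgcc
Cdk6, chr5:3343802-3343826, plus strand: gccgtgacatTGACGcgcccggcgc
Cdkn1b, chr6:134920412-134920436, plus strand: tcttcttcttCGTCAgcctcccttc
The Cdk6 half-site begins 81 bases before its RefSeq start site and the Cdk4 half-site 90 bases before its own. The Cdk6 window lies inside the listed gene, which begins at chr5:3341485. An exon of Cdk6 annotated in GENCODE vM21 begins past base 3343731, ahead of the half-site. At Ccnd3 the half-sites lie 165 and 28 bases before a pair of alternative start sites. The second is also inside the listed gene, and an annotated Ccnd3 exon begins ahead of it, past base 47593435. At Cdkn1b the match lies past the start, at base 21. A match of letters is not a measured binding site, and the windows of Ccne1, Cdkn1a, Cdkn2c and Cdkn2d held none. Both Cdkn2c windows begin inside an annotated Cdkn2c exon. The bases ahead of that gene's listed 5' end, chr4:109667189, were therefore not searched for any of these letters.

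The 12 libraries held 16660234 to 24602484 reads, recovered from the deposited FPKM (fragments scaled by gene length and library size) because FPKM times gene length came in whole steps of 1 read. Depth did not overlap between the siRNAs, at 16660234 to 20758033 reads in siNTC and 20760297 to 24602484 in siCreb1 libraries. Genes above 0 numbered 19456 to 20008 and 20173 to 20993. The part of depth in the comparisons of siCreb1 with siNTC was not tested. Creb1 lay between 10.3 and 12.4 FPKM in the 6 siNTC libraries and between 1.17 and 1.81 FPKM in the 6 siCreb1 libraries (exact permutation test, two-sided, p = 0.00216). All 7 markers of CD8+ T cells (Cd3e, Cd3d, Cd3g, Cd8a, Cd8b1, Thy1, Trac) were expressed, with a summed level of 2706 to 2749 FPKM in siNTC and 2596 to 2616 FPKM in siCreb1 libraries. The 17 markers of other cell types summed to 54.1 to 61.6 FPKM, of which Eomes, also made by CD8+ T cells, gave 27.1 to 30.6 FPKM and the B cell gene Cd79b 7.77 to 12.3 FPKM; 8 of the 17 stayed under 1 FPKM in every library and Hbb-bs was listed at 0 in all. In bulk RNA of this kind fewer cells that express a gene and less RNA per cell cannot be told apart.

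FPKM is a level per gene length, so levels can be set beside each other across genes, though only roughly. The length used counts all annotated exonic bases (1574 for Cdkn2d, 13989 for Cdk6), which need not be the length of the transcript expressed. Averaged over the 12 libraries, Cdkn1b (63.2 FPKM), Ccnd2 (63.0 FPKM), Cdkn2d (61.8 FPKM) and Cdk4 (56.5 FPKM) were the most abundant of the 10 transcripts, each above at least 92.4% of the genes tested. Cdkn2c (24.5 FPKM), Ccnd3 (23.4 FPKM) and Ccne1 (15.6 FPKM) followed. Cdk6 averaged 10.5 FPKM, Ccne2 5.28 FPKM and Cdkn1a 3.65 FPKM. Each pair therefore had a dominant partner at the transcript level: Ccnd2 over Ccnd3, Ccne1 over Ccne2, Cdk4 over Cdk6, Cdkn1b over Cdkn1a and Cdkn2d over Cdkn2c. Transcripts of the Ink4 inhibitors were not rare next to those of the kinases they bind. The summed Ink4 level was 80.3 to 92.9 FPKM and that of Cdk4 plus Cdk6 60.1 to 70.2 FPKM in the same libraries. FPKM measures transcripts, and protein levels may differ. Reads per library ranged from 9390 to 14853 for Ccnd2 down to 240 to 509 for Ccne2 and 200 to 316 for Cdkn1a, where counting error alone was 4.61% to 5.95% and 5.84% to 6.38% of the level.

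**Figure D1:**
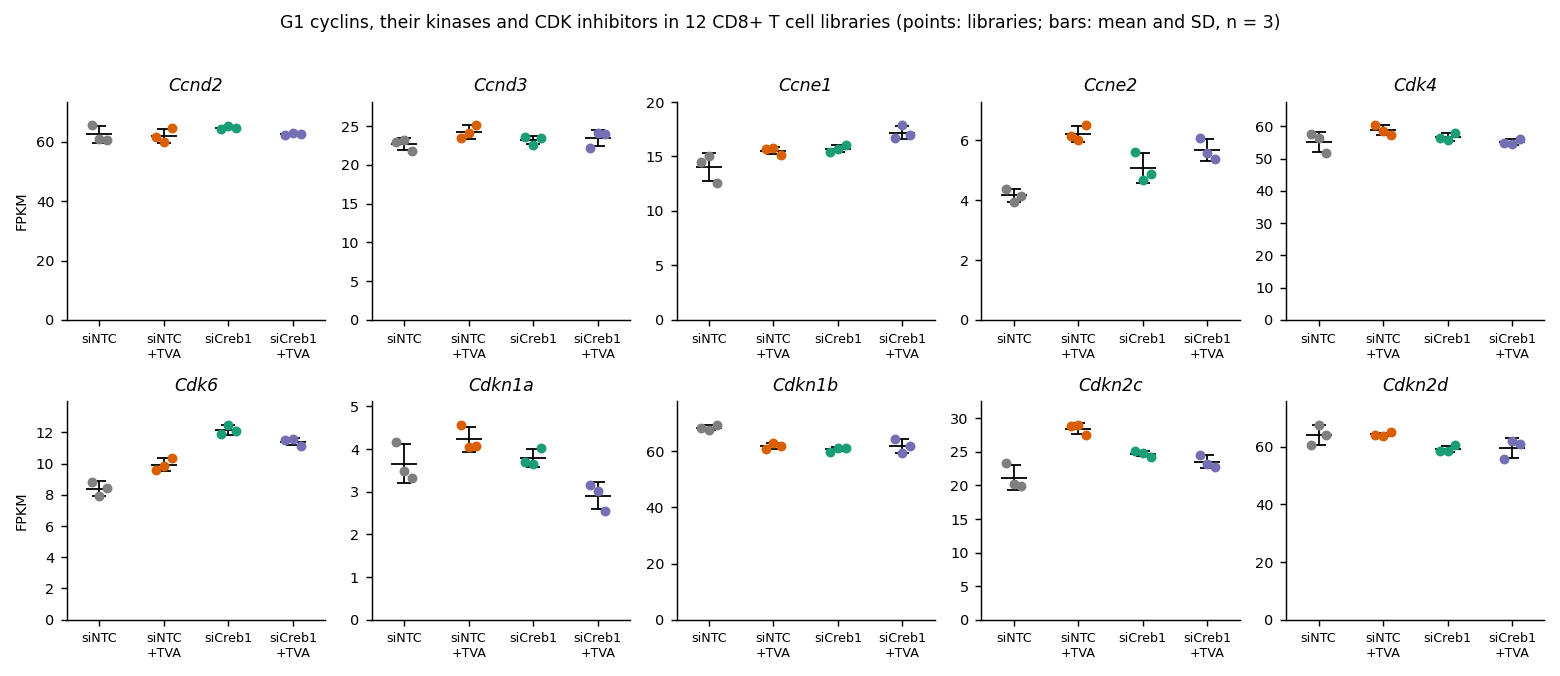
FPKM (vertical axes, from 0) of each of the 10 genes in the 12 libraries by group; points are libraries and bars are the mean and SD (n = 3). Cdk6 was lowest in siNTC (mean 8.41 FPKM) and highest in siCreb1 (12.2 FPKM), Cdkn2c and Ccne2 were highest in siNTC plus TVA (28.5 and 6.22 FPKM), and Cdkn1b was highest in siNTC (68.5 FPKM), while Ccnd2 stayed between 60.0 and 65.7 FPKM in all libraries.

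Differences were tested with limma on log2(FPKM + 1) across all 11550 genes, with Benjamini-Hochberg adjusted p-values and a threshold of 0.05. A fold change from that fit is a ratio of FPKM + 1, which understates the change of low genes such as Ccne2 and Cdkn1a. The comparisons share libraries: both TVA in siNTC cells and siCreb1 against siNTC without TVA are read against the 3 siNTC libraries, so their values are set side by side below and are not independent of each other.

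The D-type cyclins passed the test in none of the 6 comparisons, including siCreb1 plus TVA against siNTC. Ccnd2 (ENSMUSG00000000184, chr6:127125162-127152193, minus strand), which encodes the cyclin D2 of activated lymphocytes, measured 65.7, 61.1 and 60.7 FPKM in siNTC, 61.6, 60.0 and 64.6 FPKM in siNTC plus TVA, 64.3, 65.4 and 64.5 FPKM in siCreb1 and 62.3, 63.1 and 62.7 FPKM in siCreb1 plus TVA. Its siNTC libraries alone spanned nearly the whole range. TVA in siNTC cells gave a log2 difference of −0.0092 (95% interval −0.084 to 0.066). Ccnd3 (ENSMUSG00000034165, chr17:47505051-47599691, plus strand), which encodes cyclin D3, ranged from 21.8 to 25.2 FPKM over all libraries, and its mean was 22.7 ± 0.745 FPKM in siNTC and 24.3 ± 0.847 FPKM in siNTC plus TVA (SD, n = 3). That difference was 0.092 on the log2 scale with an adjusted p of 0.218 (limma). Ccnd3 shares 361 exonic bases with Bysl on the opposite strand (10.2 FPKM), and as the strand of the reads is not stated the reads of both cannot be told apart there. The third D-type cyclin gene, Ccnd1, was under 0.288 FPKM in every library and was not tested.

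Of the E-type cyclins, which activate Cdk2, Ccne2 (ENSMUSG00000028212, chr4:11191351-11204779, plus strand) passed the test with TVA in siNTC cells and Ccne1 did not, and the difference between them was not tested. Its libraries measured 4.37, 3.95 and 4.15 FPKM in siNTC, 6.13, 6.001 and 6.51 FPKM in siNTC plus TVA, 5.62, 4.67 and 4.88 FPKM in siCreb1 and 6.07, 5.57 and 5.38 FPKM in siCreb1 plus TVA. All 3 siNTC libraries lay below the other 9, and the siCreb1 and siCreb1 plus TVA libraries overlapped. TVA raised Ccne2 in siNTC cells by 0.48 on the log2 scale (standard error 0.065, adjusted p = 0.00116, limma), and the ratio of the mean FPKM was 1.495. In siCreb1 cells the same difference was 0.14 (95% interval −0.0041 to 0.29, adjusted p = 0.542, limma). The difference between those effects, −0.34 (standard error 0.092), did not pass (adjusted p = 0.0964, limma). Knockdown without TVA was accompanied by a rise of 0.23 (standard error 0.065, adjusted p = 0.0413, limma), and siCreb1 plus TVA cells stood 0.37 above siNTC (adjusted p = 0.00347, limma). The knockdown call was lost when all genes above 0 were tested (adjusted p = 0.104), under quantile normalization (0.0643), with only the libraries compared (0.113), and without any 1 of 8 libraries, namely siNTC 1, 2 or 3, siNTC plus TVA 1 or 2, siCreb1 1 or 3 or siCreb1 plus TVA 2 (0.0531 to 0.13, limma). Ccne2 shares 609 exonic bases with Ints8 on the opposite strand (6.19 FPKM).

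Ccne1 (ENSMUSG00000002068, chr7:38097984-38107534, minus strand), which encodes cyclin E1, measured 14.5, 15.1 and 12.6 FPKM in siNTC, 15.7, 15.8 and 15.1 FPKM in siNTC plus TVA, 15.5, 15.7 and 16.04 FPKM in siCreb1 and 16.7, 17.9 and 17.0 FPKM in siCreb1 plus TVA. The siNTC libraries were the lowest and the siCreb1 plus TVA libraries the highest, with the other groups overlapping in between. Neither TVA nor knockdown alone passed the test: the log2 fold change was 0.14 for TVA in siNTC cells (adjusted p = 0.173), 0.12 for TVA in siCreb1 cells (adjusted p = 0.529) and 0.16 for knockdown without TVA (adjusted p = 0.0894, all limma). Between siNTC and siCreb1 plus TVA, which differ in both, the rise was 0.28 (standard error 0.055, adjusted p = 0.00657, limma), and it passed without each of the 12 libraries in turn. The TVA effect in siCreb1 cells minus that in siNTC cells was −0.02 (95% interval −0.19 to 0.15, adjusted p = 0.946, limma). The knockdown difference passed on the TPM scale (0.0313), by limma-voom on the recovered reads (0.0397) and without siNTC 2 (0.041), and the difference with TVA, 0.14, passed without siNTC 3 (0.0379).

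Of the kinase genes, Cdk6 passed in every comparison but TVA in siCreb1 cells. Cdk4 (ENSMUSG00000006728, chr10:127063534-127067920, plus strand) ranged from 51.7 to 60.4 FPKM over the 12 libraries and passed in none; its largest difference, between the effects of TVA in siCreb1 and in siNTC cells, was −0.13 (95% interval −0.25 to −0.011, adjusted p = 0.295, limma). It shares 641 exonic bases with Tspan31 on the opposite strand (12.9 FPKM). Cdk6 (ENSMUSG00000040274, chr5:3341485-3531008, plus strand) encodes the second kinase that D-type cyclins activate, and its libraries measured 8.85, 7.92 and 8.46 FPKM in siNTC, 9.62, 9.83 and 10.4 FPKM in siNTC plus TVA, 11.9, 12.5 and 12.1 FPKM in siCreb1 and 11.5, 11.6 and 11.2 FPKM in siCreb1 plus TVA. The 4 groups did not overlap, in the order siNTC, siNTC plus TVA, siCreb1 plus TVA and siCreb1, and siCreb1 plus TVA and siCreb1 are the neighbours whose difference did not pass.

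Knockdown without TVA was accompanied by a Cdk6 level 1.45 times that of siNTC cells (log2 fold change 0.49, standard error 0.042, adjusted p = 0.000103, limma), which ranked 33 among the 11550 genes by the size of the limma statistic. With TVA present the rise with knockdown was smaller, 0.18 (standard error 0.042, adjusted p = 0.0244, limma). TVA raised Cdk6 by 0.22 in siNTC cells (standard error 0.042, adjusted p = 0.0106, limma), and in siCreb1 cells the difference was −0.085 (95% interval −0.18 to 0.009, adjusted p = 0.582, limma). The difference between both TVA effects was −0.30 (standard error 0.06, adjusted p = 0.0272, limma). That last call was lost when all genes above 0 were tested (0.0588), on the TPM scale (0.0998), with the replicate number as a block (0.0702) and without any 1 library except siNTC 1, siNTC 2 or siNTC plus TVA 1 (0.052 to 0.0767, limma). Its value was −0.34 to −0.27 over the 12 fits that left out a library. The rise with knockdown in the presence of TVA was lost with all genes above 0 (0.052) and without siNTC plus TVA 1 (0.0782) or 2 (0.0736) or siCreb1 plus TVA 1 (0.0769) or 2 (0.079), and the rise with TVA in siNTC cells was lost when only those 6 libraries were fitted (0.0919).

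Among the Cip/Kip inhibitors, Cdkn1b (ENSMUSG00000003031, chr6:134920401-134925513, plus strand), which encodes p27, was higher in siNTC cells than in any other group. Its libraries measured 68.3, 67.6 and 69.4 FPKM in siNTC, 60.7, 62.8 and 61.9 FPKM in siNTC plus TVA, 59.9, 61.3 and 61.1 FPKM in siCreb1 and 64.3, 59.5 and 61.9 FPKM in siCreb1 plus TVA. The siNTC libraries lay above all others, and the other 3 groups overlapped. Cdkn1b fell by 0.15 on the log2 scale with TVA in siNTC cells (standard error 0.028, adjusted p = 0.0112), by 0.17 with knockdown without TVA (adjusted p = 0.00381) and by 0.14 in siCreb1 plus TVA against siNTC cells (adjusted p = 0.00641, all limma), at ratios of the mean FPKM of 0.903, 0.887 and 0.904. In siCreb1 cells TVA made a difference of 0.026 (95% interval −0.037 to 0.089, adjusted p = 0.846, limma). The interaction, 0.17 (standard error 0.04), missed the threshold (adjusted p = 0.0575, limma) and passed with the 7480 genes of at least 5 FPKM (0.0446), under quantile normalization (0.0378), by limma-voom (0.014) and without siCreb1 plus TVA 2 (0.0272). On the TPM scale the 3 differences were −0.15, −0.12 and −0.092, with adjusted p-values of 0.0645, 0.0703 and 0.154, and the third was also smaller and missed under quantile normalization (−0.090, adjusted p = 0.0602, limma).

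Cdkn1a (ENSMUSG00000023067, chr17:29090976-29100727, plus strand), which encodes p21, a target of p53, was the least abundant of the 10 genes. It measured 4.17, 3.48 and 3.33 FPKM in siNTC, 4.57, 4.04 and 4.08 FPKM in siNTC plus TVA, 3.69, 3.65 and 4.02 FPKM in siCreb1 and 3.16, 3.03 and 2.55 FPKM in siCreb1 plus TVA. The siCreb1 plus TVA libraries lay below all others. With TVA present, Cdkn1a was 0.42 lower on the log2 scale in siCreb1 than in siNTC cells (standard error 0.083, adjusted p = 0.0120, limma), and the ratio of the mean FPKM was 0.688. TVA in siCreb1 cells gave −0.29 (95% interval −0.48 to −0.11, adjusted p = 0.235, limma) and TVA in siNTC cells 0.17 (95% interval −0.014 to 0.35, adjusted p = 0.278, limma). The difference of these, −0.46 (standard error 0.12, adjusted p = 0.0775, limma), passed by limma-voom (0.0331) and without siNTC 1 (0.0355). Against siNTC, the siCreb1 plus TVA level was −0.25 (adjusted p = 0.0623, limma), which passed under quantile normalization (0.0319).

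Of the Ink4 inhibitors, Cdkn2c (ENSMUSG00000028551, chr4:109660876-109667189, minus strand), which encodes p18, an inhibitor that E2F activates in dividing cells, had the largest interaction that passed. Its libraries measured 23.3, 20.2 and 19.9 FPKM in siNTC, 28.9, 29.0 and 27.5 FPKM in siNTC plus TVA, 25.1, 24.8 and 24.3 FPKM in siCreb1 and 24.6, 23.2 and 22.8 FPKM in siCreb1 plus TVA. The siNTC plus TVA libraries lay above all others, and siCreb1 plus TVA overlapped both siNTC and siCreb1. TVA raised Cdkn2c in siNTC cells by 0.42 on the log2 scale (standard error 0.054, adjusted p = 0.000872, limma), 1.35 times the siNTC mean. In siCreb1 cells the difference with TVA was −0.071 (95% interval −0.19 to 0.048, adjusted p = 0.750, limma). The difference between both effects, −0.49 (standard error 0.076, adjusted p = 0.00799, limma), passed in all 7 other settings and without each of the 12 libraries.

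The knockdown itself was accompanied by opposite Cdkn2c differences in the absence and presence of TVA. Without TVA the gene was 0.22 higher in siCreb1 than in siNTC cells (standard error 0.054, adjusted p = 0.0221, limma), and with TVA the difference was −0.26 (standard error 0.054, adjusted p = 0.0135, limma). The first call was lost with all genes above 0 (0.0598), with only the libraries compared (0.0808) and without siNTC 2 (0.073), siNTC 3 (0.0688), siCreb1 1 (0.0701) or siCreb1 2 (0.0618), and the second on the TPM scale (0.0587) and, narrowly, without siCreb1 plus TVA 3 (0.05001). In siCreb1 plus TVA against siNTC cells Cdkn2c was 0.15 higher (adjusted p = 0.081, limma), and this passed on the TPM scale (0.0451), with the replicate block (0.0383), by limma-voom (0.0145) and without siNTC 1 (0.00556), the highest siNTC library. Cdkn2d (ENSMUSG00000096472, chr9:21288410-21291407, minus strand), which encodes p19, ranged from 55.7 to 67.6 FPKM and passed in none of the 6 comparisons. Its mean was 64.1 ± 3.54 FPKM in siNTC and 59.2 ± 1.18 FPKM in siCreb1 cells (SD, n = 3), a difference of −0.11 (95% interval −0.21 to −0.013, adjusted p = 0.130, limma). The other Ink4 genes, Cdkn2a and Cdkn2b, averaged at most 0.904 and 0.164 FPKM in any group and were not tested.

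**Figure D2:**
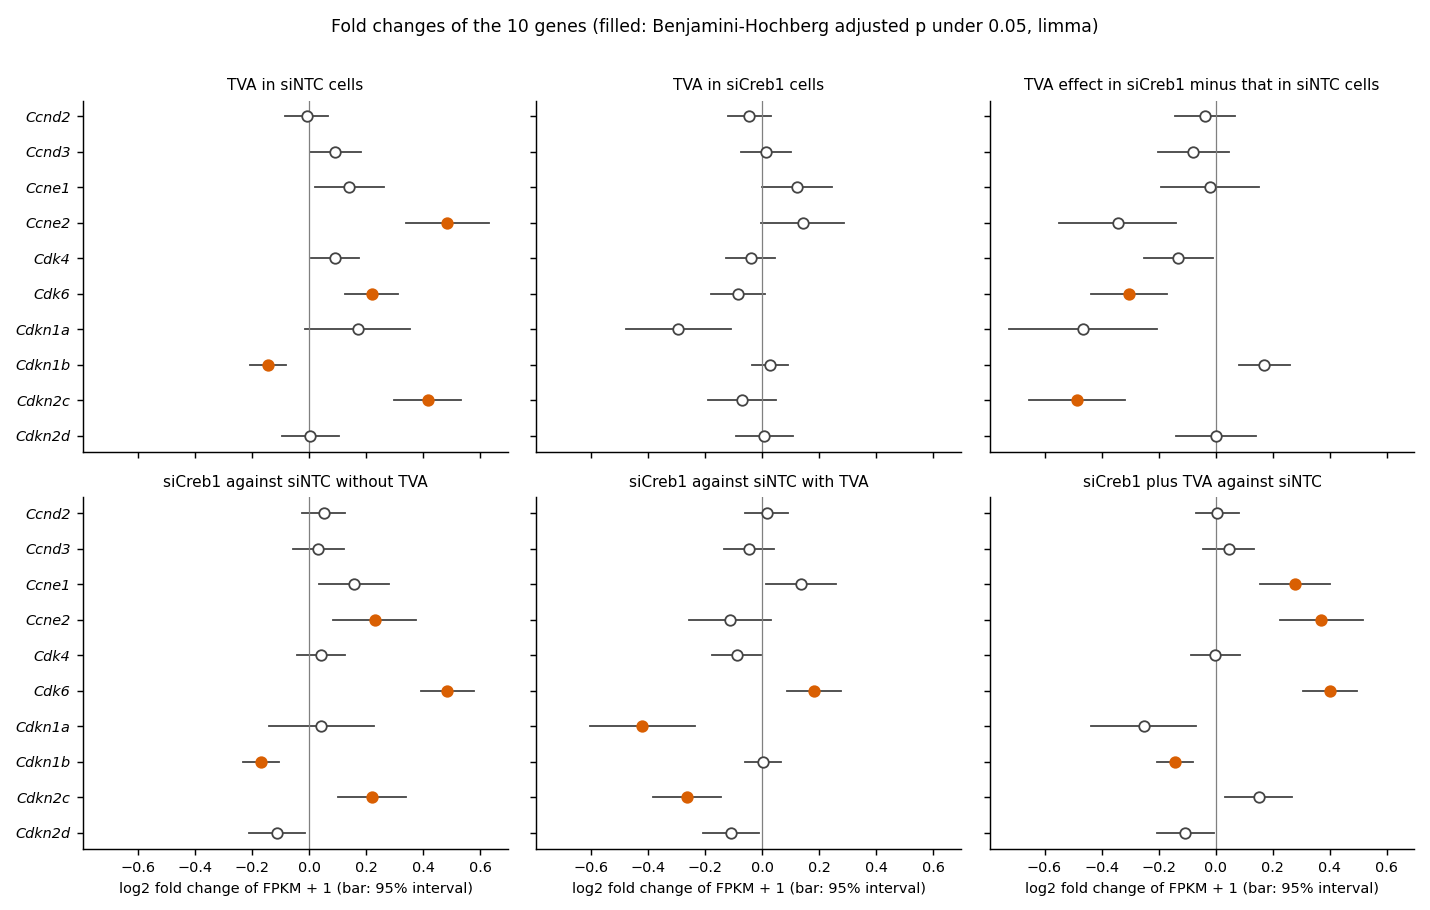
Log2 fold change of FPKM + 1 (horizontal axis) with its 95% interval for each of the 10 genes in 6 panels, 1 for each comparison; filled points passed an adjusted p of 0.05 in limma and open points did not. Cdk6 lay to the right of 0 in all 3 comparisons of siCreb1 with siNTC cells (0.49, 0.18 and 0.40), Cdkn2c lay on opposite sides of 0 in siCreb1 against siNTC without (0.22) and with TVA (−0.26), and no gene was filled for TVA in siCreb1 cells.

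Shares within each pair of partners set the members against each other in the same library. Cdk6 made up 13.2% ± 0.864 of the summed FPKM of Cdk4 and Cdk6 in siNTC, 14.5% ± 0.791 in siNTC plus TVA, 17.7% ± 0.567 in siCreb1 and 17.2% ± 0.515 in siCreb1 plus TVA cells (SD, n = 3), so that the 6 siCreb1 libraries (16.6% to 18.3%) lay above the 6 siNTC libraries (12.3% to 15.3%). The Ccne2 share of the E-type cyclins was 22.9% ± 2.05, 28.6% ± 1.34, 24.3% ± 2.05 and 24.8% ± 1.63 in the same order. The Cdkn2c share of Cdkn2c plus Cdkn2d was 24.8% ± 2.59 in siNTC and 30.7% ± 0.853 in siNTC plus TVA, and 29.5% ± 0.741 and 28.4% ± 1.96 in the siCreb1 groups without and with TVA. Cdkn1a was a minor part of the Cip/Kip pair throughout, at 5.07% ± 0.613, 6.41% ± 0.517, 5.87% ± 0.283 and 4.49% ± 0.472. Ccnd3 stayed between 25.7% and 28.7% of the D-type pair in all libraries. These shares are descriptions of transcripts and were not tested.

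**Figure D3:**
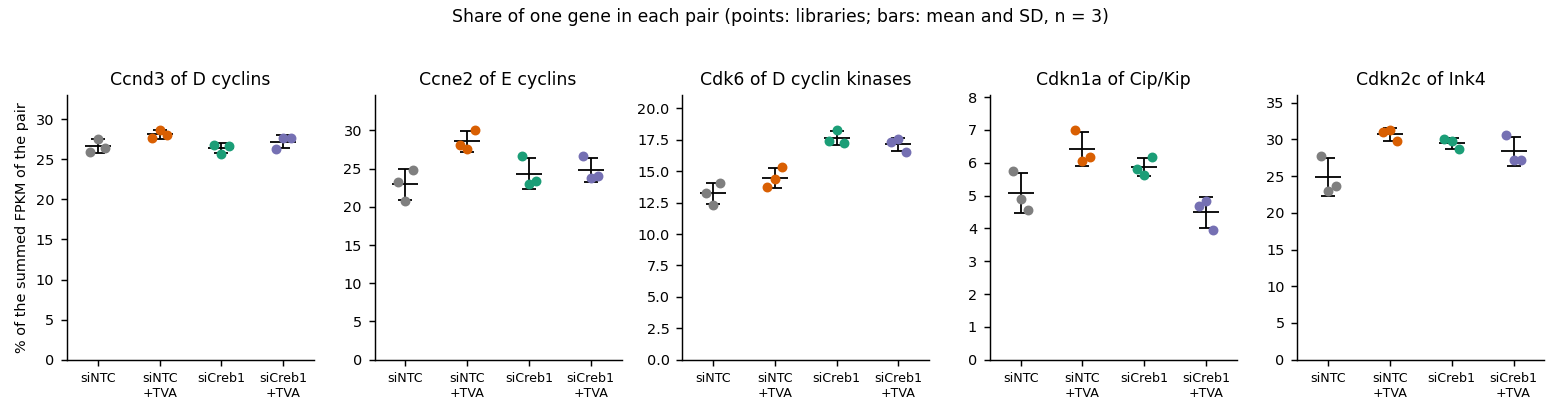
Share (%, vertical axes from 0) of 1 gene in the summed FPKM of each pair of partners by group; points are libraries and bars are the mean and SD (n = 3). The Cdk6 share was 12.3% to 15.3% in the 6 siNTC libraries and 16.6% to 18.3% in the 6 siCreb1 libraries, and the Cdkn2c share was highest in siNTC plus TVA (mean 30.7%).

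For TVA in siNTC cells, 4 of the 10 genes passed, against 7.38% of all genes tested. Ccne2, Cdkn2c and Cdk6 rose and Cdkn1b fell, so that a cyclin, a kinase and an inhibitor of that kinase rose together. The median log2 fold change of the 10 was 0.12 beside −0.0057 over all genes. Among 23 other genes of the same step, 19 were tested and 5 rose, none falling: Cdk2, the partner of cyclin E (0.31), Rbl1, a relative of the retinoblastoma protein (0.29), the E2F genes E2f1 (0.39) and E2f2 (0.40), and Tfdp1, which encodes a partner of E2F (0.25), with adjusted p-values of 1.23e-05 to 0.013 (limma). Of 16 genes of DNA replication and S phase, called replication genes below, 15 rose (median 0.41). The 16 include Ccna2 and Slbp. All 16 of 16 genes of G2 and mitosis rose too (median 0.48). The 10 genes and these lists were chosen with earlier results of these data known. Counts set beside the share of all genes, here and below, are therefore descriptions.

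With Creb1 depleted, TVA changed none of the 10 genes at the limma threshold, beside 0.537% of all genes, and limma-voom also gave 0. At an unadjusted threshold of 0.05 in limma 1 gene passed, Cdkn1a, whose adjusted p was 0.235, beside 9.58% of all genes at that threshold. None of the 19 other genes of the step, the 16 replication genes or the 16 genes of G2 and mitosis passed, with medians of 0.052, 0.022 and 0.015; at an unadjusted threshold of 0.05 in limma the counts were 1, 3 and 3 of these, beside the same 9.58% of all genes. The intervals still allowed differences of some size, up to 0.24 for Ccne1 and 0.29 for Ccne2. On the other side they reached −0.18 for Cdk6, −0.19 for Cdkn2c and −0.48 for Cdkn1a. The Cdkn1a interval, −0.48 to −0.11, lay wholly below 0.

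Tested directly, the effect of TVA differed between siCreb1 and siNTC cells for 2 of the 10 genes, Cdk6 and Cdkn2c, against 2.24% of all genes. Both were lower, as were Rbl1 (−0.35) and E2f2 (−0.30) among the 19 other genes of the step (adjusted p = 0.00432 and 0.00254, limma). The same test passed for 15 of the 16 replication genes and 15 of the 16 genes of G2 and mitosis, all lower, with medians of −0.38 and −0.46. The count for the 10 genes was 1 to 4 over the other settings, being 1 when all genes above 0 were tested, on the TPM scale and with the replicate block, 3 with genes of at least 5 FPKM and under quantile normalization, and 4 by limma-voom.

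For siCreb1 against siNTC cells without TVA, 4 of the 10 passed, against 13.7% of all genes. Cdk6, Ccne2 and Cdkn2c were higher and Cdkn1b lower. The count was 2 when all genes above 0 were tested, when only the libraries compared were fitted, and without siNTC 3 or siCreb1 1. Of the other genes of the step 3 of 19 were higher, Cdk2 (0.27), Rbl1 (0.21) and E2f2 (0.24), and 14 of 16 replication genes and 14 of 16 genes of G2 and mitosis were higher too. Of the CD8+ T cell markers, 4 of 7 were lower (Cd3d, Cd3g, Cd8b1 and Trac, between −0.16 and −0.077) and Cd8a was higher (0.089), and their part in the result was not tested.

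With TVA in both arms, 3 of the 10 passed for siCreb1 against siNTC cells, against 10.1% of all genes. Cdk6 was higher, and Cdkn2c and Cdkn1a were lower. The replication and mitotic genes went the other way from the comparison without TVA, with 8 and 9 of 16 lower (medians −0.13 and −0.17), and of the other genes of the step only Rbl1 passed (−0.14). The same 7 T cell markers gave 3 lower and Cd8a higher, and of the 9 markers of other cell types tested Lyz2, a gene of myeloid cells, was higher (0.40, adjusted p = 0.0478, limma), at 5.48 FPKM in siNTC plus TVA and 7.54 FPKM in siCreb1 plus TVA on average. The other myeloid markers listed, Csf1r, Itgam, Adgre1 and Cd14, reached at most 0.3813 FPKM in any library and were not tested. The 17 markers of other cell types summed to 60.4 to 61.6 FPKM in siCreb1 plus TVA libraries and to 54.1 to 58.9 FPKM in the other 3 groups, and the part of these markers in the result was not tested.

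In siCreb1 plus TVA against siNTC cells, which differ in both siRNA and fatty acid, 4 of the 10 passed, against 17.5% of all genes. Ccne1, Ccne2 and Cdk6 were higher and Cdkn1b lower. Among the 19 other genes Cdk2 (0.34), E2f2 (0.34), Rbl1 (0.16), Ccnh (0.14), a subunit of the kinase that activates Cdk1, Cdk2, Cdk4 and Cdk6, and Tfdp1 (0.13) were higher. Of the replication genes and of the genes of G2 and mitosis 14 of 16 each were higher (medians 0.26 and 0.27). Among the 7 CD8+ T cell markers Cd3e (0.14) and Cd8a (0.11) were higher and Cd3d, Cd3g, Cd8b1 and Trac lower (−0.18 to −0.12), and their part in the result was not tested. Of 12 tested targets of p53, the regulator that induces Cdkn1a, 6 were lower and none higher: Bbc3 (−0.49), Phlda3 (−0.48), Btg2 (−0.29), Bax (−0.25), Sesn1 (−0.15) and Trp53inp1 (−0.11).

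The p53 targets that passed in the other comparisons are read against the shares of all genes given above for each. TVA in siNTC cells lowered Bbc3 (−0.29) and Sesn1 (−0.13) and raised Gtse1 (0.40), a gene expressed in G2 and mitosis, and for TVA in siCreb1 cells 0 of 12 passed in limma (4 at an unadjusted threshold of 0.05, Bax, Bbc3, Zmat3 and Aen, beside 9.58% of all genes). For siCreb1 against siNTC, Bbc3, Sesn1 and Btg2 were lower and Gtse1 higher without TVA, and Ccng1, Btg2 and Gtse1 were lower with TVA; Gtse1 alone passed for the interaction (−0.47). The comparison in which Cdkn1a fell, siCreb1 against siNTC with TVA, was the one in which Ccng1 (−0.16), Btg2 (−0.19) and Gtse1 (−0.30) were the targets that passed.

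The levels of the 10 genes can be set beside those of the replication genes library by library. The mean log2(FPKM + 1) of the 16 replication genes was 4.16 to 4.17 in siNTC, 4.41 to 4.42 in siCreb1, 4.44 to 4.45 in siCreb1 plus TVA and 4.57 to 4.60 in siNTC plus TVA. Ccne2 and Cdkn2c had their lowest and highest mean levels in the same groups, siNTC and siNTC plus TVA, as the replication genes. So did Ccnd3, which passed in no comparison. Between the siCreb1 groups Cdkn2c went the other way from the replication genes, at 24.75 FPKM without and 23.53 FPKM with TVA. Cdk6 was highest in another group, siCreb1, and it was lower in siNTC plus TVA (9.95 ± 0.392 FPKM) than in siCreb1 (12.2 ± 0.306 FPKM, SD, n = 3). Cdkn1b was highest where the replication genes were lowest and differed little among the other groups. The part that cell cycle stage has in the levels of the 10 genes was not tested.

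**Figure D4:**
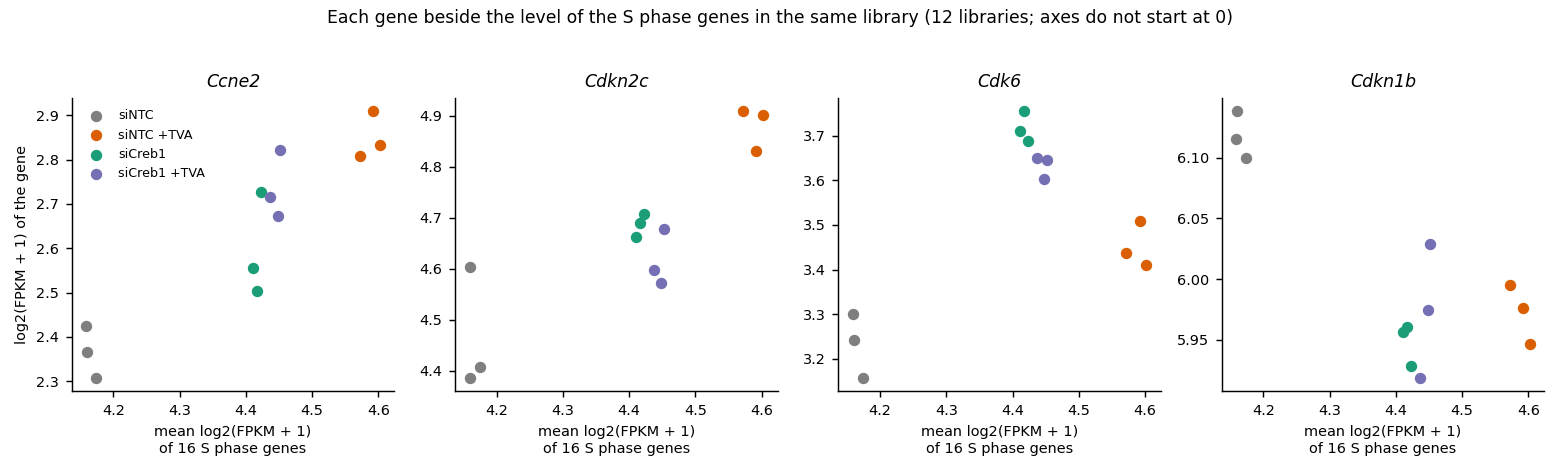
Log2(FPKM + 1) of Ccne2, Cdkn2c, Cdk6 and Cdkn1b (vertical axes) against the mean log2(FPKM + 1) of 16 replication genes (horizontal axis, labelled S phase genes) in each of the 12 libraries, coloured by group. The axes do not start at 0. Replication genes ran from 4.16 in siNTC to 4.60 in siNTC plus TVA, Ccne2 and Cdkn2c were highest at that right end, Cdk6 was highest in siCreb1 libraries near 4.42, and Cdkn1b was highest at the left end.

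By Pearson's r over the 12 libraries on the log2 scale, the tested gene whose pattern was most like that of Ccne2 was Mcm4 (r = 0.972), a subunit of the replicative helicase, and the closest to Cdkn2c was Nfya (r = 0.949), a subunit of the CCAAT-binding factor. Cdk6 was closest to Zfp207 (r = 0.971), Cdkn1b to Rpap3 (r = 0.95) and Cdkn2d to P2rx1 (r = 0.956). For the others the closest were Zmiz1 for Ccne1 (r = 0.931), Uprt for Ccnd3 (r = 0.92), Chst11 for Cdkn1a (r = 0.892), Ahcyl2 for Ccnd2 (r = 0.878) and Ppp1r7 for Cdk4 (r = 0.86). These values describe 12 points in 4 groups that share library and group effects, each was picked as the highest among all tested genes, and they carry no test. Among the 10 genes themselves r was 0.82 between Ccne2 and Cdkn2c and −0.80 between Cdk6 and Cdkn1b.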

How the data were processed

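RNA was sequenced from mouse primary CD8+ T cells, 12 libraries in 4 groups that the sample labels give, prepared with a SMARTER mRNA-Seq kit. The authors deposited 1 table per library of FPKM, that is reads scaled by gene length and library size; submitters' processing notes name GRCm38 and mm10, and the aligner, counting program, annotation release and strand setting are not given in the sources used here. The listed positions and exonic lengths of the 10 genes are those of GENCODE vM21 (GRCm38).

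FPKM times gene length was a whole multiple of 1 step per library, within 0.02 of a read, for at least 99.995% of values above 0, which gave the reads per library (16660234 to 24602484) used for depth and for limma-voom. The 11550 genes whose mean FPKM reached 1 entered limma 3.58.1, on log2(FPKM + 1), in R 4.3.3 (lmFit, contrasts.fit, eBayes with trend), 1 fit over the 4 groups with 6 comparisons, Benjamini-Hochberg adjustment over all tested genes and a threshold of 0.05. No count model other than voom was used, since the deposited unit is FPKM. The fit was tested on simulated data. Alternatives tried were log2(FPKM + 0.1), no filter beyond a value above 0 in 1 library (29700 genes), the 7480 genes with a mean of at least 5 FPKM, quantile normalization, TPM computed from FPKM, the replicate number as a block, limma-voom, only the libraries compared, and leaving out each library. Creb1 was compared by an exact permutation test (SciPy 1.17.1). Promoter windows were searched on both strands for TGACGTCA, TGACG, TTTCCCGC and TTTGGCGC. Python 3.11.15 with matplotlib 3.10.9 drew the figures.

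All 10 genes are described, with the other genes named from lists of the same step (23), DNA replication and S phase (16), G2 and mitosis (16), p53 targets (14), CD8+ T cells (7) and other cell types (17), where they passed or were asked about, and with the gene of highest Pearson's r for each. The 10 genes and the lists were chosen with earlier results of these data known.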

Additional observations from a re-analysis of the deposited data

Results flagged for a closer look

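The effect of TVA differed between siCreb1 and siNTC cells for Cdkn2c by −0.49 on the log2 scale (limma interaction, adjusted p = 0.00799). Its 3 libraries with TVA lay above the 3 without in siNTC cells, at 27.5 to 29.0 against 19.9 to 23.3 FPKM, and the groups overlapped in siCreb1 cells, at 22.8 to 24.6 against 24.3 to 25.1 FPKM. For Cdk6 the same difference was −0.30 (adjusted p = 0.0272, limma), with 9.62 to 10.4 against 7.92 to 8.85 FPKM in siNTC cells and 11.2 to 11.6 against 11.9 to 12.5 FPKM in siCreb1 cells. The Cdk6 call was lost in 3 of the 7 other settings and in 9 of the 12 fits that left out a library.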

How the results depend on the processing

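Of 337 alternative fits of the 17 calls on single genes, 296 kept the call and 41 lost it with the same direction; of 847 fits of differences that had not passed, 793 stayed so with the same direction, 15 passed and 39 changed sign. The number of the 10 genes called for siCreb1 against siNTC without TVA was 4, and 2 with all genes above 0, 2 with only the libraries compared and 2 to 4 with 1 library left out. For the interaction it was 2, and 1 with all genes above 0, 1 on the TPM scale, 1 with the replicate block, 4 by limma-voom and 1 to 3 with 1 library left out; a fit of only the libraries compared was not run, since it uses all 12. Genes of at least 5 FPKM leave out Cdkn1a, which then has no value. The replicate numbers showed no visible pairing of the libraries (correlations of same-numbered deviations from group means −0.0593 to 0.0595 over 18 pairs). Correlations between libraries of different numbers were not computed, and the values given cannot tell whether same-numbered libraries shared a source. The replicate block moved the count for siCreb1 plus TVA against siNTC from 4 to 5. Apart from Cdk6 for the interaction and Cdkn2c in that comparison, the block changed no call on the 10 genes.

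Signs changed only for differences near 0 that had not passed. By limma-voom Ccnd2 with TVA in siNTC cells was 0.0051, Cdk4 in siCreb1 plus TVA against siNTC 0.034 and Cdkn2d for the interaction −0.0018. Under quantile normalization Cdkn2d with TVA in siNTC cells was −0.00084 and Cdk4 in siCreb1 plus TVA against siNTC 0.040. On the TPM scale that Cdk4 value was 0.053, and Ccnd3 for siCreb1 against siNTC with TVA was 0.0042. With 1 library left out, TVA in siNTC cells gave −0.038 to 0.027 for Ccnd2 and −0.036 to 0.043 for Cdkn2d. TVA in siCreb1 cells gave −0.0064 to 0.050001 for Ccnd3, −0.0015 to 0.054 for Cdkn1b and −0.024 to 0.053 for Cdkn2d. The knockdown without TVA gave −0.0054 to 0.073 for Cdk4 and −0.0084 to 0.12 for Cdkn1a, and with TVA −0.0092 to 0.044 for Ccnd2 and −0.026 to 0.029 for Cdkn1b. In siCreb1 plus TVA against siNTC the range was −0.014 to 0.041 for Ccnd2 and −0.047 to 0.031 for Cdk4, and for the interaction −0.06996 to 0.052 for Ccne1 and −0.037 to 0.049 for Cdkn2d.

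The cause of these changes was not tested. Scaling moved the balance of calls over all genes: for siCreb1 against siNTC without TVA 47.5% of calls were higher as deposited and 75.4% on the TPM scale, and with TVA 45.7% and 83.8%, while the median of all genes moved by less than 0.1. Cdkn1a and Ccne2 had the fewest reads, 200 to 316 and 240 to 509 per library.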
